A study of Homo sapiens with 3 samples.

Results

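The genes described here encode the cytosolic, mitochondrial and endoplasmic reticulum chaperones of the heat shock families, with their J-domain and BAG co-chaperones, the TRiC chaperonin and the heat shock factors. They were chosen by symbol and annotation class alone, as protein-coding genes of the HSP90, HSPA, HSPB, HSPD1, HSPE1, HSPH1, DNAJA, DNAJB, DNAJC, CCT, BAG and HSF series with TCP1 and CRYAB, and HSPA5 was left out. The choice gave 95 of the 58735 genes in the table, of which 19951 are protein-coding. HSPA14 occurs under 2 identifiers, and 3 members are read-through genes that join a chaperone gene to its neighbour. RNA came from RPE-1, a telomerase-immortalised line of human retinal pigment epithelium. The line carries centrin 2 fused to GFP as a centriole marker and PLK4 under an rtTA-driven promoter that responds to doxycycline. All 3 libraries are of 1 group (siControl_no_induction), given scramble siRNA with PLK4 not induced, so no comparison between conditions was possible. The labels do not say whether separate cultures were used, so the spread between libraries may be technical. In bulk RNA of this kind, fewer cells of a type and less RNA per cell cannot be told apart.

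Chaperones of these families bind unfolded stretches of other proteins and release them in cycles that mostly depend on ATP. For HSP70, the J-domain proteins (DNAJ) deliver the client and start ATP hydrolysis, while the HSP110 and BAG proteins release ADP and with it the client. HSP90 receives clients such as kinases and steroid receptors from HSP70. TRiC is a double ring of different subunits that folds actin and tubulin, small heat shock proteins hold aggregating clients without ATP, and HSP60 with HSP10 forms the folding chamber of mitochondria. Many of these genes are induced by heat shock factor 1, HSF1, which binds inverted repeats of GAA and TTC called heat shock elements.

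The libraries held 49279692, 60040029 and 46625774 counts. Levels are given as CPM, the count relative to the TMM-scaled library total, for a gene across libraries, and as RPKM, CPM per kb of all annotated exons, between genes. A gene counted as detected at a CPM of at least 1 in each library. The spread between libraries was set against counting error, gene by gene, in a chi-square test. It covered the 16293 genes whose mean count reached 10, and p-values were adjusted by Benjamini-Hochberg. A gene with an adjusted p below 0.05 is said to differ between libraries. Library 1 stood apart from libraries 2 and 3 over the whole table, so counts of such genes are also given without it. The summed CPM of the immediate early genes FOS, FOSB, EGR1, JUN and ATF3 was 517, 218 and 186 in libraries 1, 2 and 3, and that of the 13 mRNAs of the mitochondrial genome was 92118, 51342 and 56882. Of 11 pigment epithelium markers 5 were detected (MITF, OTX2, BEST1, PMEL and SERPINF1), while RPE65 of the visual cycle was near 0 with 8, 6 and 0 counts and TYR, DCT and TTR were at 0. Of 5 blood markers only PTPRC was detected, with 143, 93 and 80 counts, and HBB and CD3E had 0 counts. LYZ went the other way, with 2, 45 and 40 counts, and the list sum was 2.99, 2.27 and 2.56 CPM. Of 3 neuron markers TUBB3 alone was detected, and neither of the 2 liver markers was.

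Of the 95 members, 76 were detected (80%), beside 57.7% of all protein-coding genes. The detected members had a median of 11.1 RPKM and ran from 0.505 for DNAJC28 to 374 for HSPB1, while the median of all detected protein-coding genes was 6.09 RPKM. Together the members held 1.32%, 1.32% and 1.36% of all counts in libraries 1, 2 and 3 (1.33% ± 0.0245, SD, n = 3). The 5 members with the most counts, HSP90AA1, HSP90B1, HSPA8, HSP90AB1 and HSPB1, made up 45.1% of that. These few genes carried much of the summed level. By family, detection covered 3 of 3 HSP90, 3 of 3 HSP110, 10 of 12 HSP70, 4 of 9 small heat shock protein, 8 of 10 TRiC and CCT, 6 of 6 BAG and 3 of 3 HSF genes, with HSPD1 and HSPE1. Just inside the detection limit lay DNAJC28 (1.17, 1.07 and 1.52 CPM in libraries 1, 2 and 3) and HSPA1L (1.81, 1.76 and 1.496 CPM), and just outside it HSPA6 (0.886, 0.543 and 0.663 CPM) and CCT6B (0.597, 0.708 and 0.663 CPM).

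The heat shock factors were expressed unequally. HSF1, the factor that drives the response to heat and proteotoxic stress, stood at 15.7 ± 1.64 RPKM (SD, n = 3). HSF2, a factor with roles in development and stress, stood at 7.33 ± 0.126 RPKM, and HSF4, known for its role in the lens, at 1.68 ± 0.0748 RPKM. HSF1 exceeded HSF2 by 2.13-fold per unit of exon length (log2 ratio 1.09 ± 0.174 SD, higher in 3 of 3 libraries). By principal transcript, the main protein-coding form in GENCODE, the log2 ratio was 2.32, and by the longest transcript 1.68. For such ratios a sign-flip test (exact, two-sided) cannot give a p below 0.25 with 3 libraries, so none of the 21 pairs can pass 0.05. HSF1 reached 73.4, 89.8 and 86.7 CPM in libraries 1, 2 and 3, lowest in library 1 (1.22-fold between highest and lowest, chi-square adjusted p = 3.52e-20). HSF2 reached 20.03, 19.4 and 19.96 CPM and HSF4 5.46, 5.96 and 5.64 CPM, with adjusted p of 0.752 and 0.585 by the same chi-square test. Of the HSF4 exons 31.4% are shared with another annotated gene on the same strand, so its level is uncertain. Between libraries 2 and 3 alone HSF1 did not pass the test (adjusted p = 0.203 by chi-square without library 1).

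Many members are known targets of HSF1, and promoter windows from RefSeq (GRCh38.p14, 250 bases before to 50 after each annotated start) were searched for heat shock elements. A symbol match was found for 81 of 94 member symbols. The 3-unit element was written as TTCNNGAANNTTC or GAANNTTCNNGAA and the 2-unit element, which every 3-unit element contains, as TTCNNGAA or GAANNTTC. In each pair the letters are each other's reverse complement or their own, so both strands are covered. The 3-unit element occurred in the windows of 7 of 81 member symbols (8.64%), beside 0.608% of all 27305 genes with a window. The 2-unit element occurred in 27 of 81 (33.3%), beside 16.2% of all genes. The 7 members with the 3-unit element were HSP90AA1, HSP90AB1, HSPA8, HSPA6, HSPD1, DNAJA1 and DNAJB6. Their elements are shown because they stand beside some of the most abundant members and beside 1 that was not detected. The element is in capitals, neighbouring bases are in lower case, and in HSPD1 the capitals are 2 overlapping elements.
HSP90AA1 (chr14:102087112-102087140, minus strand): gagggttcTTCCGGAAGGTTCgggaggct
HSP90AB1 (chr6:44247770-44247798, plus strand): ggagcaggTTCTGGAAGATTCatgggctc
HSP90AB1 (chr6:44247823-44247851, plus strand): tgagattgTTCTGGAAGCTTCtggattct
HSPA8 (chr11:123062346-123062374, minus strand): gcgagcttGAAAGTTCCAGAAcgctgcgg
HSPA8 (chr11:123062171-123062199, minus strand): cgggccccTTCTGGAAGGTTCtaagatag
HSPA6 (chr1:161524458-161524486, plus strand): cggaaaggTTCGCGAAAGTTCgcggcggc
HSPD1 (chr2:197500062-197500090, minus strand): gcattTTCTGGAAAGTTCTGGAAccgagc
DNAJA1 (chr9:33025268-33025296, plus strand): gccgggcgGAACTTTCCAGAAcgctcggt
DNAJB6 (chr7:157336865-157336893, plus strand): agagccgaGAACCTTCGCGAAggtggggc

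HSP90AB1, the constitutive cytosolic HSP90, has both elements within one stretch of 106 bases upstream of an annotated start, and they begin 165 and 112 bases before it.
HSP90AB1 promoter (chr6:44247758-44247863, plus strand): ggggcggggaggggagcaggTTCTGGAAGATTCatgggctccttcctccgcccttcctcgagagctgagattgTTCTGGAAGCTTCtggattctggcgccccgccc

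The levels of the genes with a 3-unit element ran from below detection to among the highest. HSP90AA1 and HSP90AB1 were at 328 and 329 RPKM, HSPA8 was at 255, HSPD1 at 111, DNAJA1 at 93.8 and DNAJB6 at 8.18. HSPA6, whose element begins 74 bases before the start, had 43, 33 and 31 counts (0.294 RPKM). HSPA6 is silent in most unstressed human cells and strongly induced by heat. A match to these letters describes the window only, and no match says only that the letters are not in it. HSPH1, HSPE1 and BAG3 had no match to either element in their windows.

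The 3 HSP90 genes were among the most abundant members and stood at nearly the same level per unit of length. HSP90AB1 (ENSG00000096384, chromosome 6, 44246166 to 44253888) stood at 329 ± 15.4 RPKM. HSP90AA1 (ENSG00000080824, chromosome 14, 102080738 to 102139699), the stress-inducible cytosolic form, stood at 328 ± 21.6 RPKM. HSP90B1 (ENSG00000166598, chromosome 12, 103930107 to 103953645), the endoplasmic reticulum form GRP94, stood at 311 ± 7.44 RPKM (SD, n = 3 for each). Their ranges over the libraries overlapped, and the sign of the difference between the cytosolic forms changed with the library (log2 ratio HSP90AB1 over HSP90AA1 0.04, 0.05 and -0.07). That order depended on the length used. Divided by the principal transcript, HSP90AB1 stood at 367 RPKM, HSP90AA1 at 509 and HSP90B1 at 511. In CPM, HSP90AA1 had 1761, 1592 and 1808, HSP90AB1 1028, 937 and 979.8 and HSP90B1 1424, 1461 and 1494 in libraries 1, 2 and 3. Library 2 was the lowest for both cytosolic genes and library 1 for HSP90B1, with ratios of highest to lowest of 1.14, 1.10 and 1.05. All 3 differed between libraries, beside 68.6% of all genes tested, and all 3 still did so without library 1, beside 28.1%. When each gene was allowed a further coefficient of variation of 0.05, none of the 3 did, beside 32.7%.

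Among the HSP70 members one constitutive form dominated, and the counts assigned to the inducible forms were low beside it. HSPA5, the HSP70 gene left out of the members, stood at 177 RPKM, below HSPA8 and above HSPA9. HSPA8 (ENSG00000109971, chromosome 11, 123057489 to 123063230), the constitutive cytosolic HSC70, stood at 255 ± 13.3 RPKM. Its libraries held 1292, 1165 and 1249.9 CPM. HSPA9 (ENSG00000113013, chromosome 5, 138553756 to 138575724), the mitochondrial HSP70 mortalin, stood at 50.4 ± 8.91 RPKM and HSPA13 (ENSG00000155304, chromosome 21, 14371115 to 14383484), a microsomal HSP70, at 23.4 ± 1.69 RPKM (SD, n = 3). HSPA8 exceeded HSPA9 by 5.10-fold per unit of exon length (log2 ratio 2.35 ± 0.191 SD, higher in 3 of 3 libraries), or by a log2 ratio of 1.78 with principal transcripts.

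HSPA1A (ENSG00000204389, chromosome 6, 31815464 to 31817946) and HSPA1B (ENSG00000204388, chromosome 6, 31827735 to 31830255), the heat-inducible pair, lie next to each other on chromosome 6. HSPA1A had 998, 1344 and 1084 counts and HSPA1B 1569, 2237 and 1634 in libraries 1, 2 and 3. At 8.84 and 13.8 RPKM, both lay above the median of all detected protein-coding genes, 6.09 RPKM. Of the 50-base windows in their transcripts, 71.3% and 73.5% also occur in transcripts of another gene, mostly of each other. Their separate values are therefore uncertain, and how multiply aligned reads were counted is not given in the sources used here. Summed, they reached 52.9, 58.9 and 58.1 CPM, lowest in library 1. HSPA8 had 21.9 ± 2.36 times as many counts (SD, n = 3). The sum is uncertain too, and would be too low if multiply aligned reads were dropped. Another annotated gene shares 36.5% of HSPA1B exons on the same strand. HSPA1L, the third gene of that cluster and mainly a testis gene, stood at 0.664 ± 0.0668 RPKM. HSPA6 stood below detection, and 45.5% of its windows occur elsewhere, mainly in HSPA7.

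The remaining HSP70 relatives were expressed at low to moderate levels. HSPA14, which sits on ribosomes with DNAJC2, was listed under ENSG00000284024 and ENSG00000187522, which overlap on chromosome 10 and stood at 8.15 ± 0.414 and 3.99 ± 0.463 RPKM. Reads in exons common to both cannot be assigned to one. HSPA12A, a distant relative, stood at 4.71 ± 0.190 RPKM, and HSPA2, known from male germ cells, at 1.28 ± 0.159 RPKM (SD, n = 3). HSPA12B, known from endothelium, had 0, 1 and 1 counts. A count of 0 allows up to 3 counts, which is 0.0618, 0.0494 and 0.0641 CPM in libraries 1, 2 and 3, for counting error only.

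All 3 HSP110 genes, whose proteins release ADP from HSP70, were detected. HSPA4 stood at 39.6 ± 4.05 RPKM, HSPH1 at 32.4 ± 1.61 and HSPA4L at 5.42 ± 0.237 (SD, n = 3). HSPA4 exceeded HSPA4L by 7.28-fold (log2 ratio 2.86 ± 0.0865 SD). HSPA4 over HSPH1 gave a log2 ratio of 0.29 ± 0.207 SD per unit of exon length, but -0.31 with principal transcripts and -0.42 without length, so their order was not settled. HSPA4 reached 225, 183 and 203 CPM, highest in library 1, while HSPH1 reached 256, 276 and 282 CPM, lowest in library 1.

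Small heat shock protein genes divided into a very abundant one, a few moderate ones and several at or near 0 counts. HSPB1 (ENSG00000106211, chromosome 7, 76302544 to 76304295), which encodes HSP27, was the highest member per unit of length at 374 ± 14.8 RPKM, from 602, 639 and 593 CPM in libraries 1, 2 and 3. HSPB8, the partner of BAG3 in selective autophagy, stood at 22.5 ± 1.49 RPKM. HSPB1 exceeded HSPB8 by 16.7-fold per unit of exon length. CRYAB, the alpha-crystallin B chain of lens and muscle, had 147, 230 and 155 counts and stood at 1.11 ± 0.126 RPKM (SD, n = 3), so that HSPB1 exceeded it by 337-fold (log2 ratio 8.40 ± 0.119 SD, or 7.80 with principal transcripts). HSPB11 stood at 10.6 ± 1.48 RPKM, but its product is the intraflagellar transport protein IFT25, not a typical small heat shock protein. HSPB6 was below detection with 40, 35 and 20 counts. HSPB2 had 0, 2 and 2, HSPB3 0, 1 and 0, and HSPB7 and HSPB9 had 0 in every library. HSPB2, HSPB3, HSPB6 and HSPB7 are known from muscle and heart, and HSPB9 from testis.

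**Figure D1:**
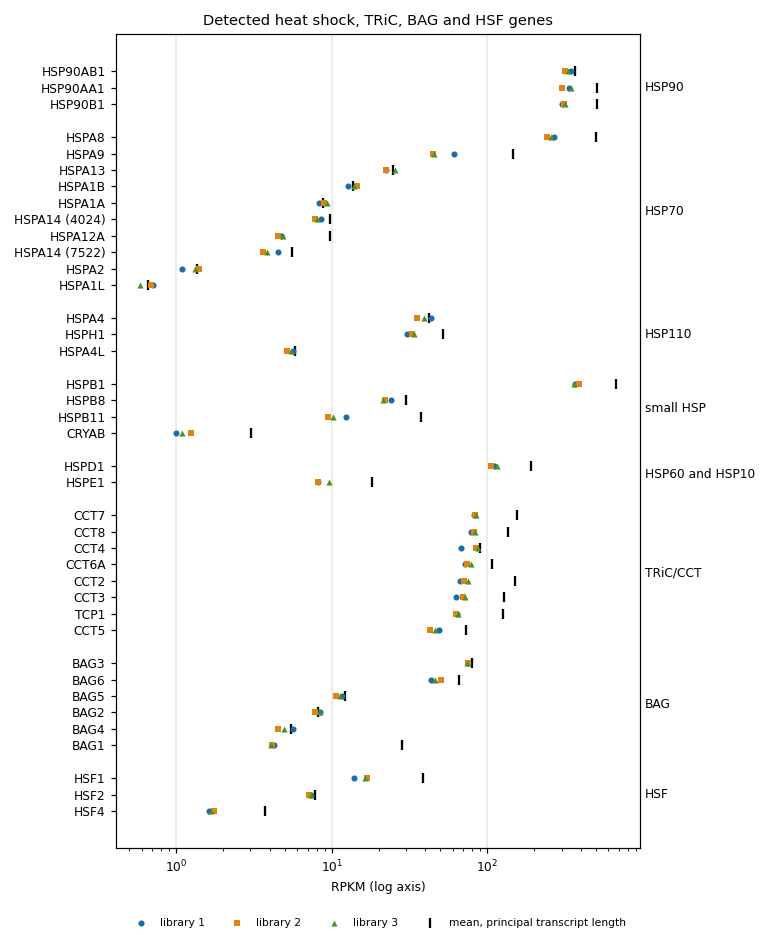
Level of each detected heat shock, TRiC, BAG and HSF gene in RPKM on a log axis, with 1 point per library (exon union length) and a black bar for the mean over the 3 libraries by principal transcript length. HSPA14 is labelled with the last digits of its identifiers, the 3 libraries of a gene lie close together, and HSPB1 and the HSP90 genes stand near the top.

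The mitochondrial folding chamber gave unequal counts for its partners. HSPD1 (ENSG00000144381, chromosome 2, 197486581 to 197516737), which encodes HSP60, stood at 111 ± 4.84 RPKM, and HSPE1 (ENSG00000115541, chromosome 2, 197499994 to 197503457), which encodes HSP10, at 8.68 ± 0.809 RPKM (SD, n = 3). HSPD1 had 22929, 27402 and 23024 counts in libraries 1, 2 and 3, against 788, 986 and 889 for HSPE1. HSPD1 exceeded HSPE1 by 12.8-fold per unit of exon length (log2 ratio 3.68 ± 0.0846 SD), although the genes overlap in opposite directions on chromosome 2. The read-through gene HSPE1-MOB4 shares 20.2% of the principal HSPE1 transcript, and 27.2% of the windows of that transcript occur in other genes. For the principal HSPD1 transcript that share of windows was similar, at 24.8%. HSPE1-MOB4 itself had 0, 2 and 1 counts. The 26 annotated pseudogenes of HSPE1 together had 56, 22 and 19 counts. With pseudogene counts added to both parents the log2 ratio was 3.63. With the same gene counts divided by the length of exons free of same-strand overlap, the log2 ratio was 3.53. How many HSPE1 or HSPD1 reads were dropped as ambiguous was not tested. HSPA9, which imports and folds proteins upstream of HSP60, was lower than HSPD1 per unit of exon length (log2 ratio -1.15 ± 0.247 SD), and with principal transcripts the log2 ratio was -0.40.

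The 8 genes of the TRiC ring were expressed at similar levels. They ran from 46.1 RPKM for CCT5 to 83.3 for CCT7 with a median of 72.9, a 1.81-fold range. Without length the range was 1.40-fold, from 226 CPM for CCT4 to 315 for TCP1, and with principal transcripts it was 2.13-fold. The coefficient of variation across the 8 subunits was 15.2%, 19.3% and 18.1% in libraries 1, 2 and 3 on the RPKM scale. In order, CCT7 stood at 83.3 ± 1.19 RPKM, CCT8 at 81.8 ± 2.503, CCT4 at 79.7 ± 10.6, CCT6A at 74.99 ± 3.48, CCT2 at 70.8 ± 4.49, CCT3 at 68.1 ± 4.93, TCP1 at 63.9 ± 1.41 and CCT5 at 46.1 ± 2.95 (SD, n = 3). Each neighbour in that order overlapped the next over the 3 libraries, except that CCT5 lay below TCP1 in every library. TCP1 over CCT2 gave a log2 ratio of -0.15 ± 0.0803 SD.

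The ring genes were lower in library 1 than the mean of libraries 2 and 3 for 6 of 8 subunits (median log2 difference -0.09), and for 6 with DESeq2 size factors and 7 with plain library totals. Over all 16293 genes tested the same median was -0.02, with 8530 lower in library 1, and 9177 were lower by library totals. CCT4 had the widest ratio, with 191, 240.0 and 246 CPM (1.29-fold, chi-square adjusted p = 4.24e-85), and CCT5 went the other way with 286, 252 and 269 CPM. Of the 8 genes 7 differed between libraries and CCT7 did not pass the test (adjusted p = 0.0759 by chi-square), beside 68.6% of all genes tested. Without library 1 the number was 4, beside 28.1% of all genes tested and 4077 of 11508 detected protein-coding genes. CCT6B, a testis paralogue of CCT6A, had 29, 43 and 31 counts, and CCT6A exceeded it by 489-fold with exon unions (log2 ratio 8.93, or 8.22 with principal transcripts). CCT8L2 had 0 counts in every library.

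**Figure D2:**
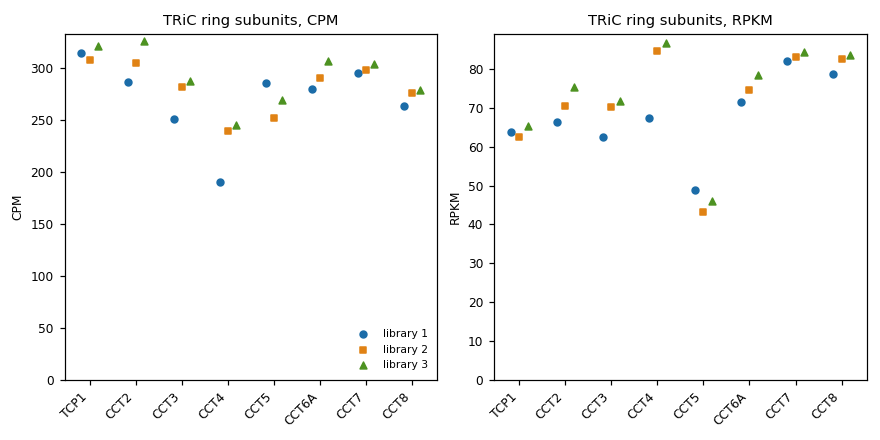
Level of the 8 TRiC ring genes in CPM (left) and RPKM (right), with 1 point per library and axes that start at 0. The subunits lie within a narrow band in every library, with CCT4 lowest in CPM and CCT5 lowest in RPKM.

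Of the 44 J-domain genes of types A, B and C, 37 were detected. Type A and B proteins resemble the bacterial DnaJ and handle unfolded clients broadly, while type C proteins mostly recruit HSP70 to one place or task. The detected type A genes had a median of 18.1 RPKM, type B 10.5 and type C 6.08.

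DNAJA1 (ENSG00000086061, chromosome 9, 33025211 to 33039907), a main cytosolic partner of HSPA8, was the highest J-domain gene at 93.8 ± 6.25 RPKM. DNAJA2 stood at 18.1 ± 0.0439 RPKM and the mitochondrial DNAJA3 at 7.42 ± 0.408 RPKM (SD, n = 3). DNAJA1 exceeded DNAJA2 by 5.18-fold (log2 ratio 2.37 ± 0.0951 SD). DNAJA1 had 243, 249 and 275 CPM, highest in library 3, while DNAJA2 had 91.4, 91.8 and 91.5 CPM and did not pass the test (chi-square adjusted p = 0.974). DNAJA4, a type A gene known from heart and muscle, had 0 counts in every library. None of its exons is shared on the same strand and 6.68% is on either strand, and since the counting settings are unknown the 0 may not mean that the gene was unexpressed.

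In type B, DNAJB1 (ENSG00000132002, chromosome 19, 14514770 to 14529770), the inducible HSP40, led at 35.96 ± 3.84 RPKM (SD, n = 3). Its libraries held 116, 142 and 138 CPM, lowest in library 1 (1.23-fold, chi-square adjusted p = 4.24e-33). DNAJB2 stood at 15.2 ± 0.706 RPKM, DNAJB4 at 15.0 ± 2.67, DNAJB12 of the endoplasmic reticulum membrane at 12.97 ± 0.639 and DNAJB11, the lumenal ERdj3, at 10.5 ± 0.412. The level of DNAJB6, a strong suppressor of aggregation, depended on the length more than that of any other detected member. It stood at 8.18 ± 0.767 RPKM over 14981 bases of annotated exons, against 76.2 RPKM over the 1609 bases of its principal transcript. DNAJB1 exceeded DNAJB6 by 4.39-fold with exon unions, but the log2 ratio was -0.39 with principal transcripts. DNAJB6 over DNAJB2 likewise gave log2 ratios of -0.90 and 1.43. DNAJB11 exceeded DNAJB9, the ERdj4 gene of the unfolded protein response, by 1.90-fold with exon unions (log2 ratio 0.92), and the log2 ratio was 2.12 with principal transcripts. DNAJB5 and DNAJB14 were the lowest detected at 5.05 ± 0.708 and 2.74 ± 0.553 RPKM. DNAJB13, a gene of sperm and cilia axonemes, had 2, 3 and 4 counts, and DNAJB7 and DNAJB8, known from testis, had 0 in every library.

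In type C, DNAJC8, which associates with the spliceosome, was the highest at 62.98 ± 10.2 RPKM (SD, n = 3). The histone chaperone DNAJC9 stood at 38.6 ± 1.08 RPKM, DNAJC5, the cysteine string protein of secretory vesicles, at 24.8 ± 2.37, the mitochondrial DNAJC11 at 13.6 ± 0.433 and DNAJC14 at 12.99 ± 0.711. Other annotated genes share 23.2% of DNAJC14 exons on the same strand. DNAJC27 and DNAJC28 were the lowest detected at 1.17 ± 0.151 and 0.505 ± 0.0943 RPKM. DNAJC12, a helper of aromatic amino acid hydroxylases, was below detection with 35, 39 and 19 counts. DNAJC5B and DNAJC5G, paralogues of DNAJC5 known from testis, had 13, 16 and 10 and 5, 3 and 2 counts, at or near the floor for DNAJC5G. Of the 8 listed testis forms in the table (HSPA1L, CCT6B, DNAJC5B, DNAJC5G, DNAJB13, DNAJB8, DNAJB7 and HSPB9), HSPA1L alone was detected.

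**Figure D3:**
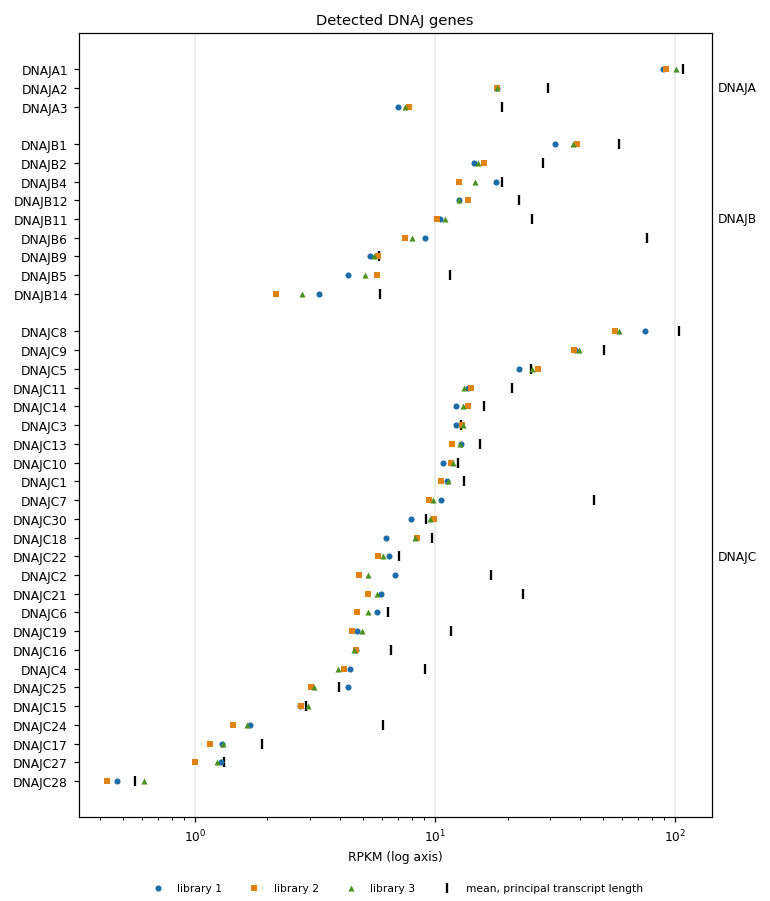
Level of each detected DNAJ gene in RPKM on a log axis, with 1 point per library (exon union length) and a black bar for the mean by principal transcript length. DNAJA1 is the highest by either length and DNAJB6 shows the widest gap between the lengths.

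All 6 BAG genes, which act as nucleotide exchange factors or adaptors of HSP70, were detected. BAG3 (ENSG00000151929, chromosome 10, 119651370 to 119677819), the stress-induced partner of HSPB8, was the highest at 74.7 ± 0.609 RPKM, and BAG6 (ENSG00000204463, chromosome 6, 31639028 to 31652705), which sorts tail-anchored proteins, followed at 46.6 ± 3.48 RPKM (SD, n = 3). BAG5 stood at 11.2 ± 0.550 RPKM, BAG2, an inhibitor of the ligase CHIP, at 8.18 ± 0.348, BAG4 at 5.05 ± 0.561 and BAG1 at 4.15 ± 0.0899. BAG3 had 206, 206 and 203 CPM in libraries 1, 2 and 3, and did not pass the test of spread (1.01-fold, chi-square adjusted p = 0.558). In the same libraries FOSB had 124, 22.8 and 14.98 CPM, the widest ratio of the 5 listed immediate early genes at 8.28-fold. JUN had the narrowest of them at 1.66-fold. Any relation of these genes to BAG3 was not tested. BAG3 exceeded BAG2 by 9.14-fold (log2 ratio 3.19 ± 0.0679 SD). BAG1 over BAG4 gave a log2 ratio of -0.28 with exon unions and 2.38 with principal transcripts, so the place of BAG1 was not settled.

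**Figure D4:**
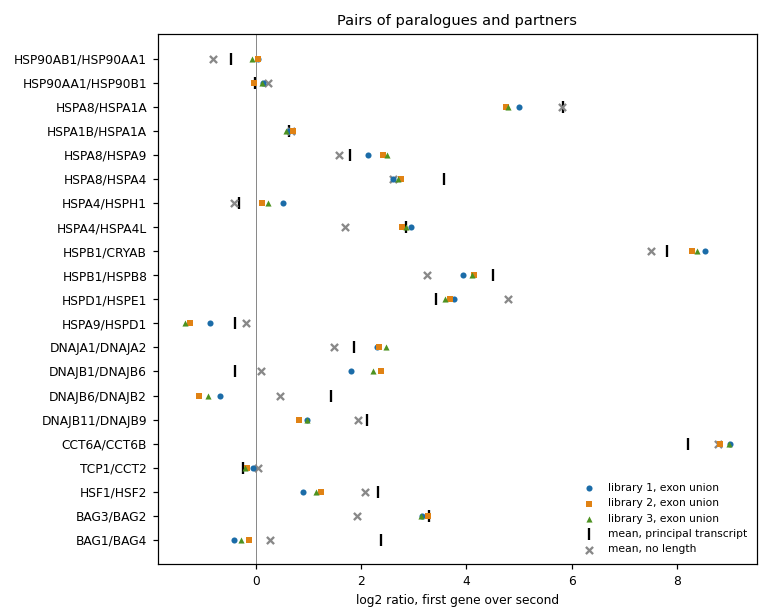
Log2 ratio of the first gene over the second for the 21 fixed pairs, with 1 point per library by exon union length, a black bar for the mean by principal transcript length and a cross for the mean without length. Points right of 0 mean that the first gene was higher, and pairs whose marks fall on both sides of 0, such as DNAJB1 over DNAJB6, changed order with the length used.

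Of the 95 members, 81 had enough counts for the chi-square test, and 60 of them differed between libraries (74.1%), beside 68.6% of all 16293 genes tested and 73.7% of the protein-coding genes tested. The members' share is thus close to the background. The differences were small. The highest CPM exceeded the lowest by a median of 1.13-fold over the 81 members, 1.19-fold over detected protein-coding genes and 1.25-fold over all genes tested. Without library 1, 33 members differed, all among the 76 detected, beside 28.1% of genes and 4077 of 11508 detected protein-coding genes. When each gene was allowed a further coefficient of variation of 0.05, 12 members did, beside 32.7% of genes. These 12 were HSPA4, HSPA9, HSPB11, CCT4, DNAJB1, DNAJB4, DNAJB5, DNAJB14, DNAJC2, DNAJC8, DNAJC18 and DNAJC25. Of the 81 members tested, 26 both differed and were highest in library 1, beside 27.9% of all genes tested, and 25 both differed and were lowest there, beside 33.4%. Those that differed with library 1 farthest from the gene's mean numbered 33 of 81, beside 45.6% of all genes tested. Among the members that differed, DNAJB14 was the 1 whose highest CPM was at least 1.5 times its lowest, beside 17.6% of all genes tested that differed by as much. HSPB6, DNAJC12 and HSPA6 had larger ratios of 1.93, 1.78 and 1.63, but with few counts they did not pass the test.

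Among the members that differed, the 10 with the widest ratios were high in library 1 in some cases and low there in others. DNAJB14 of the endoplasmic reticulum membrane had 42.9, 28.4 and 36.3 CPM in libraries 1, 2 and 3 (1.51-fold, chi-square adjusted p = 1.07e-34). DNAJC25 had 11.1, 7.82 and 8.06 CPM, DNAJB4 67.5, 47.4 and 55.3 and DNAJC2, the ribosome-associated zuotin homologue, 44.6, 31.6 and 34.5. HSPA9 had 501, 371 and 377 CPM (1.35-fold, chi-square adjusted p = 1.57e-285). DNAJC8 had 216, 162 and 168 CPM and HSPB11 39.8, 30.5 and 32.9. These 7 were highest in library 1. HSPA9 is nuclear-encoded, and the mitochondrial genome's own mRNAs were also highest in library 1, but HSPD1, its partner, had 472, 451 and 492 CPM and was highest in library 3. DNAJC18 had 40.5, 54.3 and 53.6 CPM, DNAJB5 25.5, 33.8 and 29.9 and CCT4 191, 240.0 and 246, all lowest in library 1. Without library 1, DNAJB14, DNAJB4, DNAJC2 and DNAJB5 still differed, and the other 6 did not pass the test. The part of library 1's other differences in these was not tested.

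The listed targets of heat shock factor lay on both sides of the mean in library 1. Of the 19 genes, 15 are members and 4 (STIP1, AHSA1, CHORDC1 and FKBP4) are co-chaperones outside the families, and 18 were detected. Library 1 was below the mean of libraries 2 and 3 for 9 and above it for 10 of them, with a median log2 difference of 0.0038 (or -0.03 by library totals, with 11 below). For the 5 immediate early genes the same median was 0.92, and all 5 were above. Of the genes that differed, DNAJA1, DNAJB1, HSPH1, HSPA1A, HSPA1B and FKBP4 had their lowest CPM in library 1, while HSPA8, HSP90AB1, HSPA4L, STIP1, AHSA1 and CHORDC1 had their highest there. CHORDC1, an HSP90 co-chaperone, had 40.2, 30.7 and 37.9 CPM and FKBP4, a steroid receptor immunophilin, 85.8, 97.2 and 104 CPM. Of the list 16 genes differed between libraries, which is 84.2% beside 68.6% of all genes tested and 77.5% of detected protein-coding genes. Without library 1, 10 did so, beside 28.1% of all genes tested and 4077 of 11508 detected protein-coding genes.

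**Figure D5:**
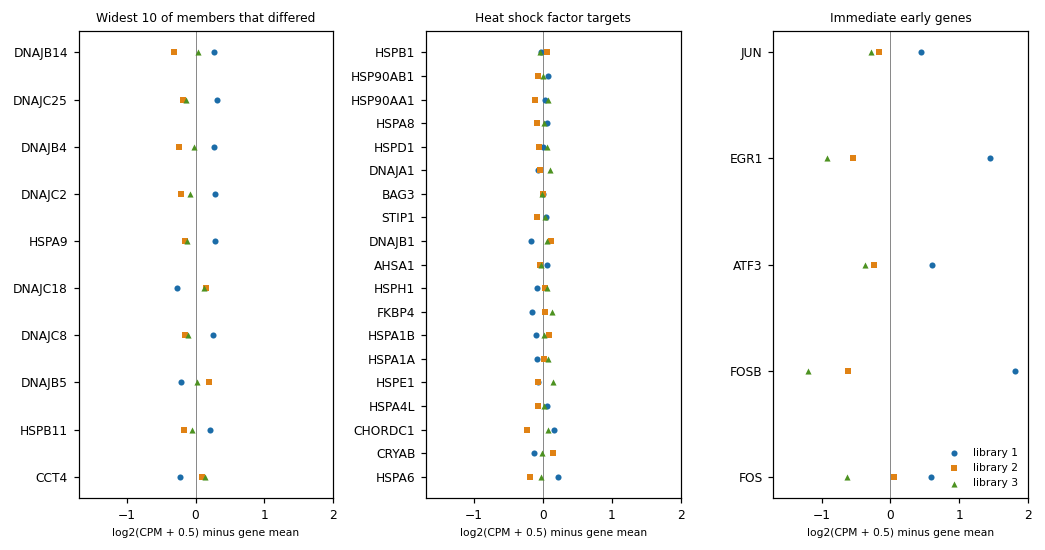
Deviation of each library from the gene's mean in log2(CPM + 0.5), for the 10 members with the widest ratios among those that differed, the 19 listed heat shock factor targets and 5 immediate early genes, on 1 common axis. The chaperone and target genes stay close to 0 in all libraries, while library 1 lies far to the right for EGR1 and FOSB.

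By compartment, all 8 listed endoplasmic reticulum members were detected (median 11.2 RPKM), led by HSP90B1, and 6 of 8 differed between libraries. All 9 mitochondrial members were detected (median 8.68 RPKM), from HSPD1 down to DNAJC28, and 6 of 9 differed. Both counts lie near the 68.6% of all genes tested. Library 1 was below the mean of the other two for 6 of the 8 and for 6 of the 9 genes, with median log2 differences of -0.07 and -0.06, and for 6 and 8 genes by library totals. Over all 16293 genes tested it was below for 8530 (median -0.02), and for 9177 by library totals (median -0.05). The endoplasmic reticulum list leaves out DNAJB12 and DNAJB14. Both differed between libraries, and their log2 differences for library 1 were -0.06 and 0.41.

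Beside the members stands a list of 36 partners outside the families, of which 35 were detected with a median of 14.6 RPKM. HSPA5, the endoplasmic reticulum HSP70 known as BiP, was the highest at 177 ± 4.37 RPKM, followed by PTGES3, the HSP90 co-chaperone p23, at 113 ± 6.53. CDC37, which brings kinases to HSP90, stood at 95.6 ± 12.1 RPKM, ST13, an HSP70-interacting protein, at 94.9 ± 11.99 and the prefoldin subunit PFDN2 at 83.1 ± 4.92 (SD, n = 3). CHORDC1 and CLPB were the lowest detected at 3.40 ± 0.464 and 2.22 ± 0.110. UNC45B, a myosin chaperone of muscle, had 0, 1 and 0 counts. Of the 35 genes tested 31 differed between libraries (88.6%), beside 68.6% of all genes tested and 77.5% of detected protein-coding genes. Of the 35, 17 differed and were highest in library 1, beside 27.9% of all genes tested. Without library 1, 20 differed, beside 28.1% of all genes tested and 4077 of 11508 detected protein-coding genes. PDCL3, a TRiC cofactor, had 61.4, 42.9 and 44.5 CPM, the prefoldin subunit VBP1 32.5, 40.1 and 46.1 and PPID, an HSP90 cyclophilin, 42.7, 30.98 and 34.4, the widest ratios in the list at 1.43, 1.42 and 1.38.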

How the data were processed

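Poly(A) RNA of 3 libraries was sequenced, and the authors deposited whole-number counts of reads per gene, not normalised. Cutadapt 1.16, STAR 2.5.2a, featureCounts 1.6.2 and hg38 are named, per the submitters' processing notes. What annotation and strand setting were used, and how multiply aligned reads were handled, is not given in the sources used here. A further 6 columns of counts have names that fit none of the samples described here and were not used. All 58735 identifiers were found in GENCODE release 29, which gave positions (hg38), exon lengths and overlaps.

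TMM factors (edgeR 4.0.16, R 4.3.3) were 0.985, 1.01 and 1.003. Counts and ratios were computed with Python 3.11.15, pandas 2.3.3 and scipy 1.17.1. The chi-square test had 2 degrees of freedom. It was checked on simulated counts with counting error only, where 0.0434% of unchanged genes passed. Such data follow the test's own assumption, so the check does not show how the test behaves with added spread between libraries. Pair ratios used a pseudocount of 0.5 count. The 50-base windows come from GENCODE transcripts. Alternatives were DESeq2 1.42.0 size factors, library totals, other limits on counts and CPM, other lengths and leaving out each library. Counts of pseudogenes matched by name were also added, with none matched for the HSP90 genes. The principal transcript length and the other scalings of library 1 were added after the values were seen.

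The members and lists were chosen with earlier results of these data known. The genes named are all members outside the DNAJ families and, in each DNAJ family, the 5 highest, the 2 lowest detected and those not detected. To these come the 10 members with the widest ratios among those that differed (mean count at least 50), the fixed pairs and the extremes of the lists. Depth of 46625774 to 60040029 counts limits low genes most, and floors cover counting error only. The value of 1 listed blood marker is not reported here.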

Additional observations from a re-analysis of the deposited data

How the results depend on the processing

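The number of detected members was 76 under every scaling and with any 1 library left out, and 78 at a CPM of at least 0.5. The members that differed between libraries numbered 60, 60 with DESeq2 size factors, 58 with library totals, 59 without a limit on the mean count, 33 to 53 with 1 library left out and 12 with an extra coefficient of variation of 0.05, so this count depended on library 1 and on the error allowed. The 33 and the 12 were all among the 60. The share of all counts ranged from 1.32% to 1.34% with 1 library left out. Pairs with the first gene higher in every library numbered 15, and 15 or 16 under the alternatives, but single ratios changed sign with the length. HSP90AB1 over HSP90AA1, 0.0082 in log2, was -0.013 to 0.046 with 1 library left out, -0.81 without length, -0.42 by the longest transcript and -0.47 by the principal transcript. Without length, HSPA4 over HSPH1 was -0.42, DNAJB6 over DNAJB2 0.45, TCP1 over CCT2 0.044 and BAG1 over BAG4 0.28. By the longest transcript, HSPA4 over HSPH1 was -0.31 and BAG1 over BAG4 0.51. By the principal transcript, HSP90AA1 over HSP90B1 was -0.0063, HSPA4 over HSPH1 -0.31, DNAJB1 over DNAJB6 -0.39, DNAJB6 over DNAJB2 1.43 and BAG1 over BAG4 2.38. The length also moved ratios that kept their sign. Without length, HSPA4 over HSPA4L was 1.69, HSPB1 over HSPB8 3.25, HSPD1 over HSPE1 4.78, DNAJA1 over DNAJA2 1.48 and BAG3 over BAG2 1.92. The principal length raised 20 of the 76 detected members at least 2-fold. No paired analysis was possible because all libraries belong to 1 group.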

Other observations

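The table lists 90 pseudogenes named for 15 of the members, and together they held 340, 228 and 203 counts in libraries 1, 2 and 3, or 0.0371% of the members' counts. Only names made of a member's symbol, P and any digits were matched. Pseudogenes named otherwise, such as HSP90AB3P, HSP90AA2P, HSP90B2P and CCT6P3, are therefore left out of that total. The pseudogenes of HSPD1 (17 genes) had 133, 93 and 79 counts, those of HSPA8 (17 genes) 41, 38 and 40, and the single CCT8 pseudogene 47, 16 and 14. Among the pseudogenes counted, those of HSPE1 had the most in proportion to their parent, 3.64% of the HSPE1 counts, followed by DNAJC19 with 2.16%.

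Members that neighbour each other on a chromosome differed in level by varying amounts. HSPA1A and HSPA1B lie 9788 bases apart and had 21.95 and 34.7 CPM. HSPA1L ends 398 bases before HSPA1A begins on chromosome 6, in the opposite direction, and had 1.69 CPM on average. CRYAB and HSPB2 overlap in opposite directions on chromosome 11 and had 3.38 and 0.0252 CPM. The read-through genes DNAJC25-GNG10 and HSPB2-C11orf52 had 0 counts in every library, and the exons of the first lie wholly within other genes on the same strand.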
